A study of Homo sapiens with 100 samples.

Results

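Interferon-stimulated genes were followed across drug treatment and genotype in TMD8, a cell line established from a diffuse large B cell lymphoma with the activated B cell profile. The set holds 48 genes of 78894 gene rows in the count table. They were chosen by symbol as widely used members of the type I interferon response, with earlier results of these data known. Bulk RNA sequencing of transcript 3' ends was carried out on single-cell clones, 5 of them wild type at BTK (WT) and 6 carrying the A428D change in the endogenous BTK gene. Each clone was kept for 24 h in DMSO, bexobrutideg, zelebrudomide, pomalidomide or venetoclax, or in venetoclax together with 1 of the other 3 drugs, which gave 88 libraries in 16 groups of 5 (WT) or 6 (A428D). A separate untreated set of 12 libraries held the same 11 clones and the parental line. The titles of all A428D libraries attach the change to SF3B1, whereas the growth protocol and the design text give BTK and the clone labels name no gene; counts of 3' ends cannot show the base change. The doses are not given in the sources used here.

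Interferon-stimulated genes are transcribed when an interferon binds its receptor at the cell surface and the kinases JAK1 and TYK2 phosphorylate STAT2. STAT2 enters a complex with IRF9 that binds a DNA element, the interferon-stimulated response element (ISRE), in the promoters of the target genes. The products block viral translation and replication, degrade RNA, tag proteins with ISG15 and raise the cell's own sensing capacity. In lymphoma of this type BTK carries the chronic B cell receptor signal, and the B cell factors IKZF1 and IKZF3 sustain IRF4 and hold interferon genes down. Pomalidomide makes the ubiquitin ligase receptor cereblon degrade IKZF1 and IKZF3. Zelebrudomide degrades BTK through cereblon and keeps that activity toward IKZF1 and IKZF3, whereas bexobrutideg degrades BTK without it. Venetoclax inhibits BCL2, a protein that blocks apoptosis.

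By role, the set comprised the translation inhibitors IFIT1, IFIT2, IFIT3 and IFIT5; the effector enzymes OAS1, OAS2, OAS3, OASL, EIF2AK2 and ADAR, which act on RNA; the nucleic acid sensors IFIH1, DDX60 and ZBP1; and ISG15 with USP18, HERC5, HERC6 and UBE2L6, which attach or remove it. It further held PARP9, PARP12, PARP14 and the ubiquitin ligase DTX3L that pairs with PARP9; the restriction factors MX1, MX2, RSAD2, BST2, TRIM22, SAMD9, SAMD9L, GBP1, ISG20 and CMPK2; other induced genes (IFI6, IFI27, IFI35, IFI44, IFI44L, XAF1, EPSTI1, LGALS3BP, PLSCR1, LAP3, HELZ2 and SP110); and the transcription factors STAT2, IRF1, IRF7 and IRF9. In the 24 h set 44 of the 48 passed the expression filter. ZBP1, HERC5, RSAD2 and CMPK2 did not, with highest counts in any library of 8, 5, 7 and 2.

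The promoters of 6 members are shown because these genes carry an ISRE and were called in the most comparisons of a drug with DMSO. The windows are the 250 bases before the RefSeq start of each gene on GRCh38.p14, on the gene's strand, 5' to 3', with the ISRE in capitals, searched as GAAA, any 2 bases and GAAA on either strand (TTTC, any 2 bases and TTTC when read from the other). They lie at chr12:112938224-112938473 on the plus strand for OAS3, chr17:78979924-78980173 on the minus strand for LGALS3BP, chr3:122680589-122680838 on the plus strand for PARP14 and chr3:146544608-146544857 on the minus strand for PLSCR1. Those of IFIT1 and IFIT3 lie on the plus strand at chr10:89392373-89392622 and chr10:89327747-89327996. GENCODE 29 begins some of these genes inside the window, so the distances below hold for the RefSeq starts.
OAS3 promoter: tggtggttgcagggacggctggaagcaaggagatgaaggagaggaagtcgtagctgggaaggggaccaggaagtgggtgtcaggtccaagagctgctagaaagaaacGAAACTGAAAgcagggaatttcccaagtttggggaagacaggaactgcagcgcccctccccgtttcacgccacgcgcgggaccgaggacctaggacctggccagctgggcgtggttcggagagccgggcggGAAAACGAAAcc
LGALS3BP promoter: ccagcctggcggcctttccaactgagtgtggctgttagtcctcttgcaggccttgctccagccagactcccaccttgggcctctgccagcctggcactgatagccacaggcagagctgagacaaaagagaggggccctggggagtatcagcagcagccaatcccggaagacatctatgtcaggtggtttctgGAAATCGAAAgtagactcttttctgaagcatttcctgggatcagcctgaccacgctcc
PARP14 promoter: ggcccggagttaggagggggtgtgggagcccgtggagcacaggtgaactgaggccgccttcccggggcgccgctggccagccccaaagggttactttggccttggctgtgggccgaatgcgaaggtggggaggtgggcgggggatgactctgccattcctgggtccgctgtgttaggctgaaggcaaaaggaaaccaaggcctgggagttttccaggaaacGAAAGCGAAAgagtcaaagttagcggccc
PLSCR1 promoter: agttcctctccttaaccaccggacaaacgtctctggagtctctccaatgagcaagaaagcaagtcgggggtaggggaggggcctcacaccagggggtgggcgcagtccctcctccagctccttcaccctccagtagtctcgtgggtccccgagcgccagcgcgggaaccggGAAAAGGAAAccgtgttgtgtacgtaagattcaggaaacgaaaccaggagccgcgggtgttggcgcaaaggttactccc
IFIT1 promoter: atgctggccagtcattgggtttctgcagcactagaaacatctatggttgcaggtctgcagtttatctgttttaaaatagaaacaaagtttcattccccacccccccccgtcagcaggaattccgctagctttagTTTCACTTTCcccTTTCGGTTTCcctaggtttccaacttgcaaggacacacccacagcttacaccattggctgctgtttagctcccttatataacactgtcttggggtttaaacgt
IFIT3 promoter: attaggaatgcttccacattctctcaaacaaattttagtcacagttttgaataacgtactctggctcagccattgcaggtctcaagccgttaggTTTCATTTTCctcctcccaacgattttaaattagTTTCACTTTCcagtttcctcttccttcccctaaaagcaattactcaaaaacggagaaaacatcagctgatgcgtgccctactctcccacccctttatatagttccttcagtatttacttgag

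Among these windows the element nearest to the start began 12 bases before it in OAS3, 29 in PARP14, 58 in LGALS3BP, 79 in PLSCR1, 103 in IFIT1 and 122 in IFIT3. OAS3, IFIT1 and IFIT3 held a further copy, at 143, 116 and 156 bases. RefSeq had a promoter entry for 40 of the 48 members, and the ISRE stood on either strand in 22 of them (55%), against 839 of all 27305 promoter windows of the same length (3.07%). The gamma-activated site, searched as TTC, any 3 bases and GAA, was in 9 of the 40 (22.5%) and in 6.78% of all windows. An ETS-IRF composite, GGAA followed by GTGAAA, was in 0 of the 40 and in 0.205% of all windows. These are matches of letters, and binding was not measured.

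Depth, in units of 1000000 counted reads, was between 1.48 and 12.5 per library (median 7.14), and the 48 members took 0.0822 to 0.223% of them. Markers of B cells (8 genes) summed to 2692 to 6467 CPM (counts per 1000000 counted reads) in every library, while 5 T cell markers summed to at most 3.56 and 4 fibroblast and endothelial markers to at most 32.5. The myeloid and plasmacytoid dendritic list summed to 426 to 1874, of which GZMB gave 424 to 1872 and each of the other 5 genes at most 2.3. The shallowest library, WT clone 3 with bexobrutideg and venetoclax, stood apart: ISG15 was at 12.1 CPM against 85.1 to 101 in the other 4 clones, and BST2 at 3.86 against 58.6 to 72.3. Since libraries are bulk, fewer cells expressing a gene and less RNA per cell cannot be told apart. Replicates are clones, so each p rests on the spread between clones of 1 line. For drug effects that spread was pooled over the 16 groups of the 24 h set. Libraries of the same clone were treated there as independent, unless a clone block is named. Genes were tested with edgeR's quasi-likelihood test and called at an adjusted p under 0.05 (Benjamini-Hochberg, over all genes tested); changes are log2 fold changes ± their standard error.

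**Figure D1:**
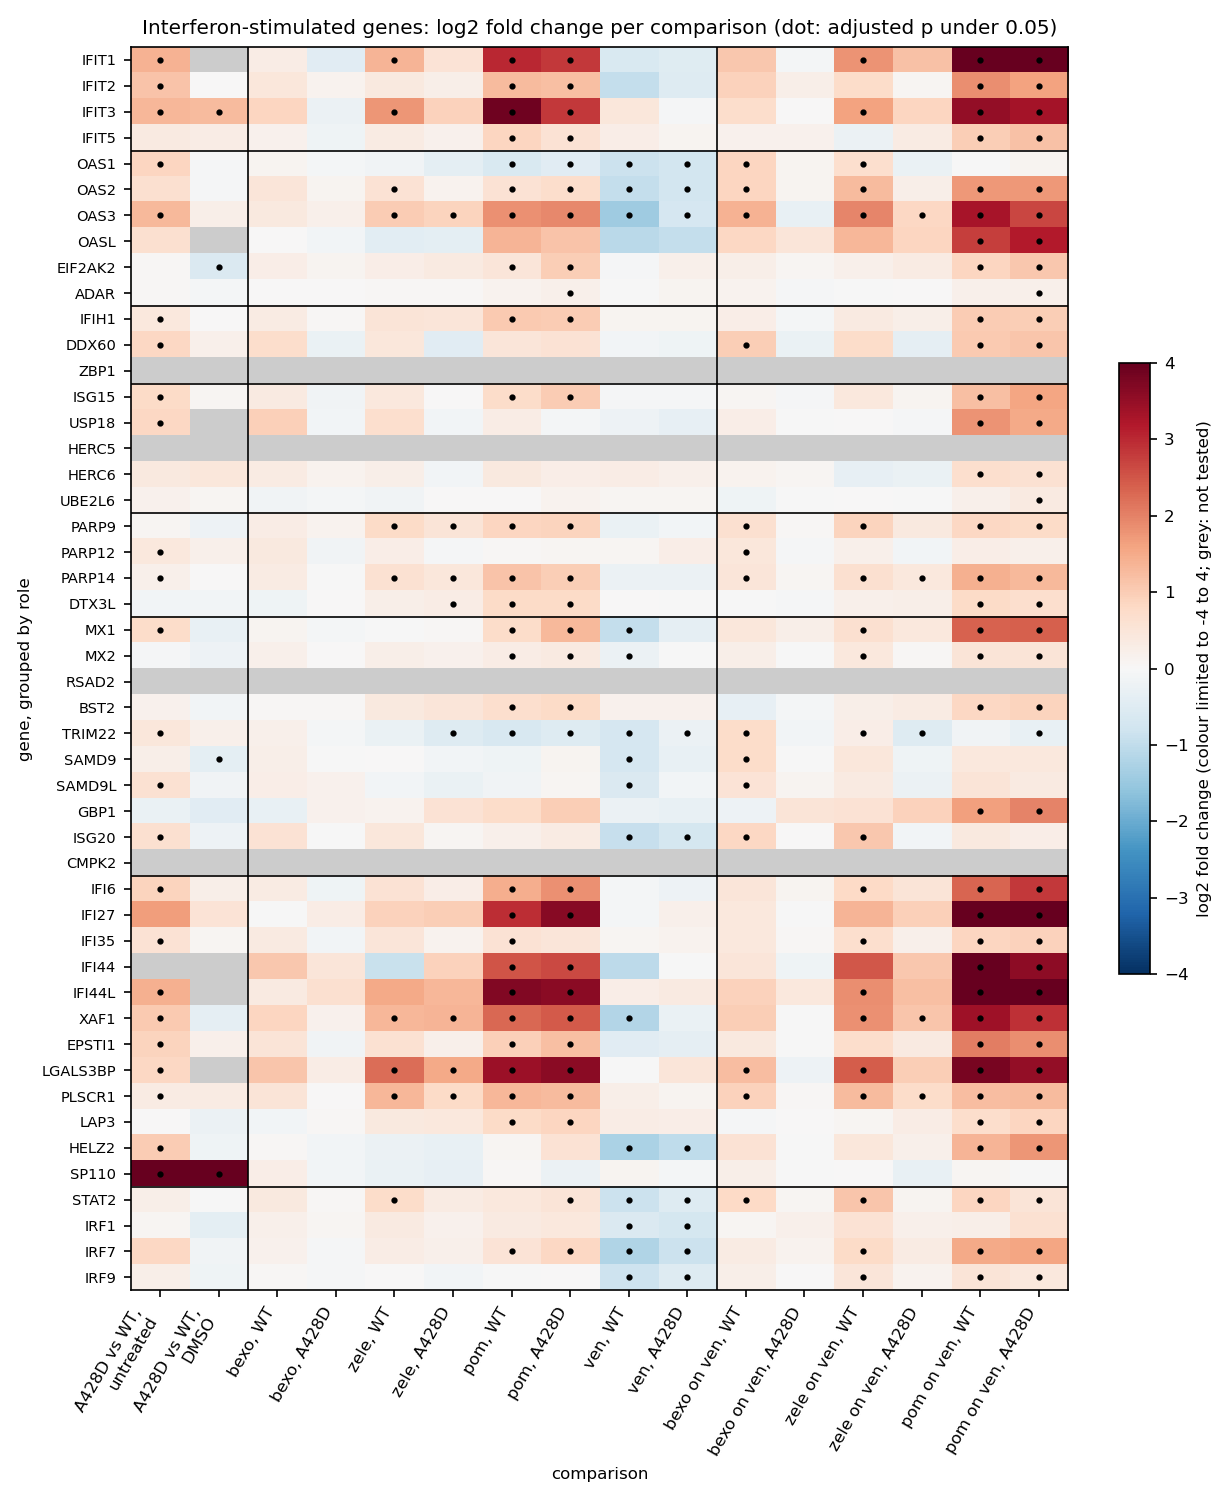
Log2 fold change of the 48 genes (rows, grouped by role) in 16 comparisons (columns), with red for higher, blue for lower, the colour limited to -4 to 4, a dot for an adjusted p under 0.05 and grey for genes not tested. With pomalidomide the dots cover most groups in both genotypes, while the bexobrutideg columns without venetoclax hold none.

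Pomalidomide raised 26 of the 44 tested members and lowered 2 in the WT clones, and raised 27 and lowered 2 in the A428D clones. Of all 14962 genes tested it changed 9.99% in WT (5.36% higher, 4.63% lower) and 8.68% in A428D (4.92% higher, 3.76% lower). The members' median change was 0.70 in WT and 0.81 in A428D, against -0.01 and -0.02 over all genes. The called increases ran from 0.29 to 3.88 in WT with a median of 1.00, and 25 of the 26 genes were higher in every WT clone than in the same clone's DMSO library. In A428D that held for 24 of the 27. The genotypes shared 25 raised members, 96.2% of the WT list and 92.6% of the A428D list. IFI35 was called in WT alone and ADAR and STAT2 in A428D alone; a test of the difference between the genotypes called 0 members (3 at an unadjusted p under 0.05) and 0% of all genes. With the clone as a block it called EIF2AK2 (0.50; 0.0468% of all genes).

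The IFIT proteins, which bind foreign RNA and block its translation, were all 4 raised in both genotypes. In the WT clones IFIT3 stood at 1.16, 0.749, 0.478, 0.546 and 0.748 CPM in DMSO and at 13.8, 8.62, 10.7, 8.90 and 12.7 with pomalidomide. Every WT clone given the drug lay above every DMSO library, a 14.9-fold ratio of means and a fitted change of 3.88 ± 0.33 (adjusted p = 4.56e-16). In the A428D clones IFIT3 ran from 1.02 to 2.34 CPM in DMSO (median 1.87) and from 6.95 to 21.8 with pomalidomide (median 11.7), again without overlap, a change of 2.82 ± 0.26 (adjusted p = 3.49e-14). IFIT1 rose by 3.00 ± 0.35 in WT and 2.84 ± 0.29 in A428D. IFIT1, IFIT2 and IFIT3 overlap LIPA on the opposite strand, and whether counting used the strand is not given in the sources used here.

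Among the effector enzymes, OAS3, which makes the 2'-5' oligoadenylate that activates RNase L, rose by 1.83 ± 0.20 in WT and 1.93 ± 0.18 in A428D. Its WT levels were 5.01, 3.5, 3.11, 7.42 and 3.89 CPM in DMSO and 20.6, 13.6, 17.4, 15.9 and 15.4 with pomalidomide, with no overlap. OAS1 went the other way and fell by 0.60 in WT and 0.46 in A428D. TRIM22, a restriction factor, was the other member to fall: its WT levels of 74.0, 65.9, 80.1, 82.5 and 79.3 CPM in DMSO were 49.8, 44, 49.7, 46.4 and 54.2 with pomalidomide, a change of -0.65. All 5 treated WT libraries lay below all 5 DMSO libraries.

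Raised genes of other roles are given next. IFI27, a mitochondrial protein used as a marker of interferon exposure, was at 1.54, 3.00, 1.43, 3.06 and 1.65 CPM in the WT clones in DMSO and at 19.1, 11.5, 15.2, 13.5 and 24.5 with pomalidomide (2.94 ± 0.57, adjusted p = 8.01e-05). LGALS3BP, a secreted glycoprotein, went from 0.900, 0.499, 1.43, 0.982 and 1.79 to 13.5, 9.27, 10.4, 12.7 and 14.7 CPM (3.44 ± 0.33). XAF1, which counters an inhibitor of apoptosis, went from 3.08, 5.99, 4.90, 6.00 and 4.79 to 26.0, 21.4, 25.3, 23.7 and 25.8 CPM (2.29 ± 0.25). In none of these 3 genes did the WT groups overlap. IFI44L (3.72 and 3.60 in WT and A428D), IFI44 (2.52 and 2.63), IFI6 (1.45 and 1.81), PLSCR1 (1.31 and 1.25), PARP14 (1.16 and 1.00) and IFIH1 (1.05 and 1.02) were also raised in both. In the WT clones 10 of the 12 other induced genes, 3 of the 4 PARP and DTX3L genes and 3 of the 8 tested restriction factors were raised.

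The ubiquitin-like modifier ISG15 rose less, from 62.5, 75.5, 77.8, 79.2 and 86.9 to 124, 112, 147, 101 and 151 CPM in WT (0.73 ± 0.22, adjusted p = 0.0207), still without overlap. MX1, a GTPase that traps viral nucleocapsids, rose by 0.74 ± 0.19 in WT and 1.30 ± 0.18 in A428D, and BST2, which tethers virions to the membrane, by 0.67 ± 0.22 and 0.77 ± 0.21. Of the transcription factors, IRF7, which amplifies interferon transcription, rose by 0.54 ± 0.16 in WT and 0.83 ± 0.14 in A428D. STAT2 was at 0.42 ± 0.17 in WT (adjusted p = 0.108) and rose by 0.52 ± 0.15 in A428D (adjusted p = 0.0189). IRF9 (-0.01 ± 0.13 and 0.03 ± 0.12) and IRF1 (0.36 ± 0.20 and 0.41 ± 0.19) were not called in either genotype.

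**Figure D2:**
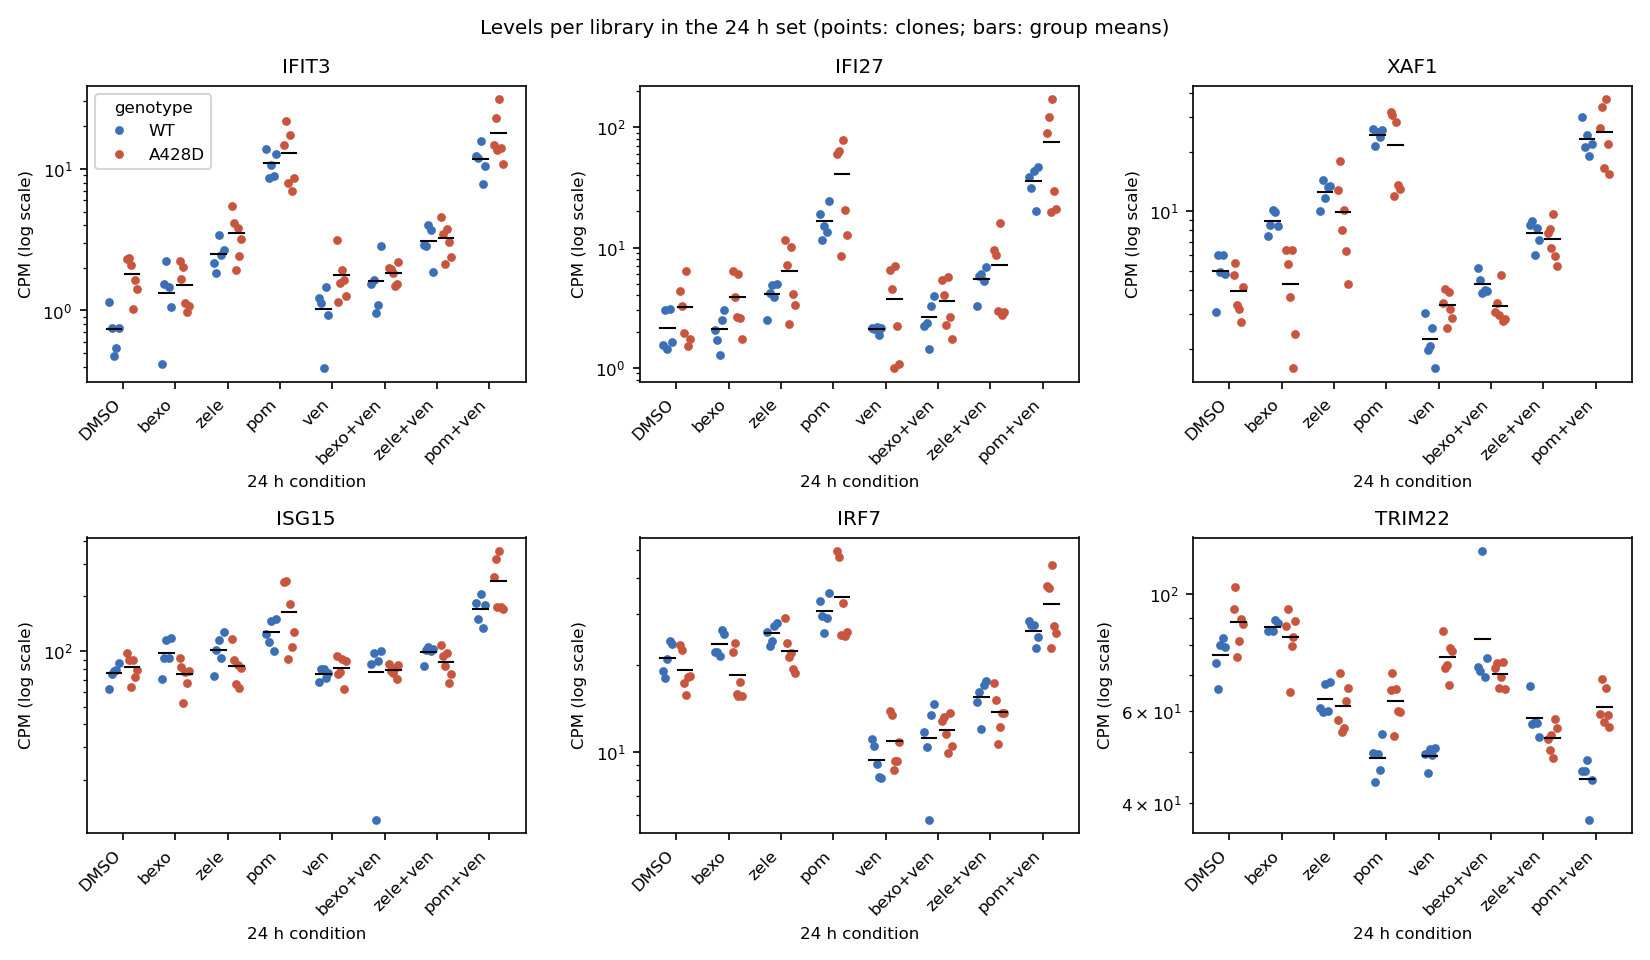
CPM of 6 genes (panels, log axis) in every library of the 8 conditions at 24 h, WT clones in blue and A428D clones in red, with bars for group means. IFIT3, IFI27 and XAF1 are highest with pomalidomide, alone or with venetoclax, while IRF7 is lower with venetoclax and TRIM22 lower with pomalidomide than in DMSO.

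Members with an ISRE in the promoter window were frequent among those raised by pomalidomide. The element was in 16 of the 22 raised members with a promoter entry in WT and in 5 of the 14 that were not called. In A428D it was in 16 of 23 and 5 of 13. These shares are a description, since the members were chosen as interferon targets.

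The A428D clones differed among themselves in the size of the pomalidomide response. The median change over the 44 genes within a clone was 1.07, 1.07, 0.50, 0.99, 0.50 and 0.47 in clones 1 to 6, and 0.79, 0.60, 0.62, 0.46 and 0.83 in WT clones 1 to 5. IFI27 with pomalidomide was at 59.6, 63.4, 8.45, 78.4, 20.6 and 12.8 CPM in A428D clones 1 to 6, so that clones 1, 2 and 4 were high and clones 3, 5 and 6 low. The same 3 clones were the high ones without drug, at 53.9, 37.6 and 54.9 CPM untreated against 19.1, 12.5 and 10.6 in clones 3, 5 and 6. ISG15 with pomalidomide showed this order too, at 240, 241 and 182 CPM in clones 1, 2 and 4 against 90.4, 106 and 127.

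**Figure D3:**
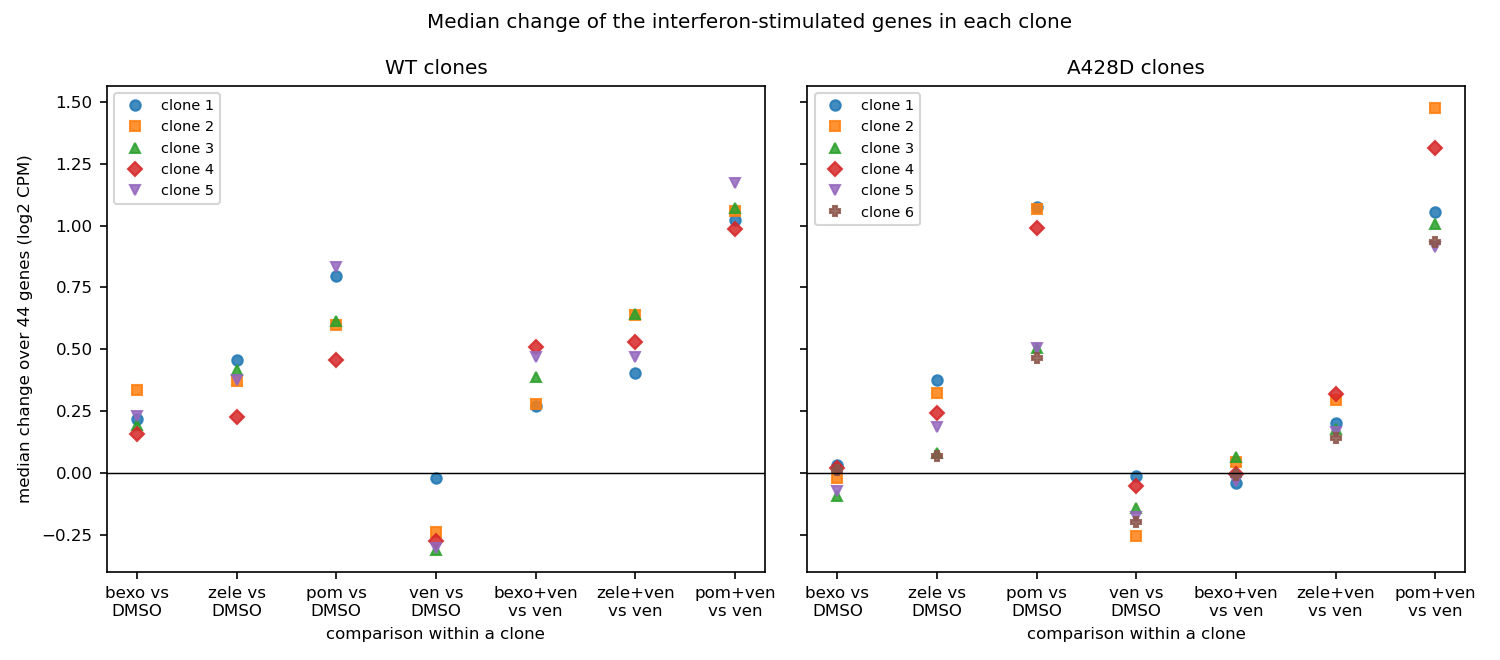
Median change over the 44 tested genes within each clone (y axis, log2 CPM, prior count 2) for 7 comparisons, with WT clones on the left and A428D clones on the right. With pomalidomide A428D clones 1, 2 and 4 lie at 0.99 to 1.07 and clones 3, 5 and 6 at 0.47 to 0.50, and bexobrutideg leaves A428D clones between -0.09 and 0.04.

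Zelebrudomide raised a smaller group, 10 of 44 in the WT clones with 0 lowered, where it changed 6.57% of all genes (3.05% higher). In A428D it raised 7 and lowered 1, TRIM22 (-0.53 ± 0.09, adjusted p = 1.60e-05), where 2.06% of all genes changed (1.34% higher, 0.715% lower). The members' median was 0.38 in WT and 0.19 in A428D. OAS3, PARP9, PARP14, XAF1, LGALS3BP and PLSCR1 were raised in both genotypes, 60% of the WT list and 85.7% of the A428D list. IFIT1, IFIT3, OAS2 and STAT2 were raised in WT alone and DTX3L in A428D alone. All 10 WT increases and all 7 A428D increases had the same sign in every clone. With the clone as a block, 22 were raised and 1 lowered in WT and 15 and 3 in A428D (16.2% and 6.73% of all genes called). Fitting only the groups compared gave 24 raised and 1 lowered in WT, so the size of this group depends on the fit.

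PLSCR1, a membrane scramblase with antiviral activity, stood at 27.9, 20.9, 25.1, 23.2 and 25.4 CPM in the WT clones in DMSO and at 60.5, 56.9, 67.9, 53.1 and 65.2 with zelebrudomide (1.32 ± 0.16, adjusted p = 1.37e-09). The groups were far apart, and pomalidomide gave a like level of 71.1, 61.0, 61.6, 51.2 and 59.8. PARP9, which pairs with DTX3L, went from 33.2, 32.8, 32.6, 31.0 and 30.2 to 60.1, 54.4, 51.5, 53.7 and 51.6 CPM (0.77 ± 0.12, adjusted p = 2.48e-06), and it overlaps DTX3L in the genome. LGALS3BP rose by 2.23 ± 0.36 in WT and 1.53 ± 0.35 in A428D, and XAF1 by 1.34 ± 0.26 in both. IFIT3 in the WT clones was at 2.15, 1.83, 3.39, 2.46 and 2.69 CPM, above every DMSO library and below every pomalidomide library (1.77 ± 0.40, adjusted p = 0.00143); in A428D the change was 0.93 ± 0.30 (adjusted p = 0.0848). ISG15 (0.42 ± 0.22), BST2 (0.38 ± 0.23), IRF7 (0.30 ± 0.16), IRF1 (0.37 ± 0.20), IRF9 (0.01 ± 0.13) and MX1 (-0.01 ± 0.20) were not called in WT, nor in A428D. The test of the difference between genotypes called 0 members (4 at an unadjusted p under 0.05; 1.04% of all genes). With the clone as a block it called PLSCR1 (-0.56) and STAT2 (-0.43), both smaller in A428D (6.76% of all genes).

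With bexobrutideg 0 members were called in either genotype, with 2.45% of all genes called in WT and 0% in A428D. At an unadjusted p under 0.05 there were 12 members in WT and 0 in A428D, and DESeq2 called 2 in WT. The members' median was 0.30 in WT and 0.00 in A428D. PLSCR1 came closest, at 32.7, 33.7, 38.0, 32.2 and 37.3 CPM in the WT clones, all above the DMSO range (0.52 ± 0.16, adjusted p = 0.0566). XAF1 was at 7.47, 8.47, 10.2, 9.95 and 8.45 CPM, also above every WT DMSO library (0.85 ± 0.27, adjusted p = 0.0810). With the clone as a block 12 members were called higher in WT (10.6% of all genes). Fitting only the groups compared gave 11 WT calls, all higher. Dropping the expression filter gave 4 WT calls, and leaving out the shallowest library gave 3. The difference between genotypes was called for 0 members (6 at an unadjusted p under 0.05; 0.615% of all genes), and with the block for DDX60 (-0.94), PARP12 (-0.53) and ISG20 (-0.59), all smaller in A428D (5.03% of all genes).

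The 2 degraders were compared directly, although whether their doses match is not given. In WT zelebrudomide was above bexobrutideg for PARP9 (0.48 ± 0.12), DTX3L (0.43 ± 0.09), PLSCR1 (0.80 ± 0.15) and LAP3 (0.50 ± 0.13), and below it for TRIM22 (-0.46 ± 0.09), while 1.23% of all genes differed (0.849% higher, 0.381% lower); with the clone as a block 7 were above and 1 below (4.43%). In A428D it was above bexobrutideg for 6 members, among them IFIT3 (1.16 ± 0.30), XAF1 (1.18 ± 0.25), LGALS3BP (1.24 ± 0.34) and PLSCR1 (0.75 ± 0.14), and below it again for TRIM22 (-0.44 ± 0.09), with 1.24% of all genes different (0.849% higher, 0.394% lower). Those 7 A428D calls became 0 when only the 2 groups compared were fitted and 16 with the clone as a block (4.82% of all genes).

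Against pomalidomide, zelebrudomide gave lower levels for 15 members and higher levels for OAS1 (0.46) and TRIM22 (0.38) in WT, where 7.43% of all genes differed (2.63% higher, 4.8% lower); without WT clone 1 the 17 calls became 11. In A428D 20 members were lower and 0 higher, where 0.842% of all genes differed (0.688% lower), and with only these groups fitted 6 were lower. IFIT3 was lower by 2.11 ± 0.28 on the log2 scale in WT and by 1.89 ± 0.24 in A428D, and IFI27 by 2.02 ± 0.54 and 2.66 ± 0.43. PARP9 was not called in WT (-0.08 ± 0.12, adjusted p = 0.779).

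Venetoclax lowered 15 of 44 members in WT and 10 in A428D and raised 0 in either. A clone block gave 18 lower and 1 higher in WT, LAP3 (0.29; 45% of all genes called), and 12 lower and 2 higher in A428D, LAP3 (0.28) and PARP12 (0.28; 30.7%). Without the block, of all genes 32.8% changed in WT (17.4% lower) and 16.8% in A428D (8.79% lower). In WT the 15 calls among 44 members were thus close to the share of all genes called in either direction. They lay above the share of all genes called lower. The members' median was -0.22 in WT and -0.14 in A428D, against -0.06 and -0.04 over all genes. All 10 A428D genes were among the 15 in WT (66.7% of that list), and MX1, MX2, SAMD9, SAMD9L and XAF1 were called in WT alone. All 4 transcription factors fell in both genotypes. IRF7 went from 19.0, 18.0, 21.0, 24.1 and 23.6 CPM in DMSO to 11.1, 10.4, 9.08, 8.18 and 8.11 in the WT clones, with no overlap (-1.21 ± 0.17, adjusted p = 6.91e-08). In A428D it fell by 0.85 ± 0.16. STAT2 fell by 0.85 ± 0.18 and 0.51 ± 0.16, IRF9 by 0.81 ± 0.14 and 0.50 ± 0.13, and IRF1 by 0.57 ± 0.21 and 0.71 ± 0.21. IRF9 and IRF1 each overlap another gene.

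The RNA-acting enzymes and restriction factors gave most of the other decreases. OAS3 fell by 1.42 ± 0.27 in WT and 0.66 ± 0.22 in A428D, OAS1 by 0.87 ± 0.13 and 0.73 ± 0.12, OAS2 by 0.97 ± 0.17 and 0.73 ± 0.16, and the exonuclease ISG20 by 0.91 ± 0.19 and 0.72 ± 0.17. HELZ2, a helicase that acts as a nuclear receptor coactivator, fell by 1.25 ± 0.28 and 1.00 ± 0.26. MX1 went from 19.9, 21.6, 25.2, 29.1 and 31.6 to 13.5, 13.4, 11.7, 14.7 and 14.2 CPM in WT (-0.95 ± 0.21) and was at -0.35 ± 0.19 in A428D. IFIT1, IFIT3, ISG15, PARP9 and BST2 were not called in either genotype.

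The response to pomalidomide was also present on top of venetoclax. Compared with venetoclax alone, the pair raised 34 of 44 members in WT, lowered 0 and changed 8.41% of all genes (5.31% higher). In A428D it raised 36, lowered TRIM22 (-0.30) and changed 7.91% of all genes (4.6% higher, 3.31% lower). All 34 WT genes were among the 36 in A428D (94.4% of that list), and all 34 were higher in every WT clone. The members' median was 1.03 in WT and 1.14 in A428D.

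MX1 stood at 87.3, 63.2, 73.7, 55.6 and 66.6 CPM in the WT clones with the pair, against 13.5, 13.4, 11.7, 14.7 and 14.2 with venetoclax, a 5.13-fold ratio of means (2.37 ± 0.21). IFIT1 rose by 4.39 ± 0.37 in WT and 4.02 ± 0.30 in A428D, IFI27 by 4.10 ± 0.56 and 4.32 ± 0.47, and IRF7 by 1.5 ± 0.17 and 1.58 ± 0.15. OASL, a relative of the OAS enzymes that aids RNA sensing, rose by 2.77 ± 0.55 and 3.16 ± 0.46; it was not called with pomalidomide alone. STAT2 (0.86 ± 0.18 and 0.53 ± 0.16) and IRF9 (0.50 ± 0.14 and 0.43 ± 0.13) were raised as well, and IRF1 was called in neither. The change on venetoclax exceeded the change on DMSO for OAS2 (1.15 ± 0.23, adjusted p = 0.0136) and MX1 (1.63 ± 0.28, adjusted p = 0.00219) in WT, where 0.0267% of all genes were called (0.0201% higher). Both had fallen with venetoclax alone in WT. The same venetoclax and DMSO libraries enter both comparisons, so such a fall by itself enlarges this difference. The counts for this difference were 0 without WT clone 4 or 5, 1 without clone 1 or 2 and 12 with the clone as a block (1.86% of all genes). In A428D it was called for 0 members by edgeR, with 14 at an unadjusted p under 0.05, 1 by DESeq2 and 5 with the block (0.167% of all genes).

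Zelebrudomide with venetoclax raised 20 members over venetoclax alone in WT, with 21.2% of all genes changed (11.6% higher). In A428D it raised OAS3, PARP14, XAF1 and PLSCR1 and lowered TRIM22 (-0.50 ± 0.09), with 1.07% of all genes changed (0.655% higher, 0.414% lower). The WT list included LGALS3BP (2.43 ± 0.38), OAS3 (1.95 ± 0.28), XAF1 (1.84 ± 0.34), IFIT1 (1.81 ± 0.50) and STAT2 (1.09 ± 0.18). Venetoclax alone had lowered OAS1, OAS2, OAS3, MX1, MX2, TRIM22, ISG20, XAF1, STAT2, IRF7 and IRF9 of this list in WT. The same WT venetoclax libraries enter both comparisons, so low values there favour both calls. With the clone as a block the A428D count was 13 raised and 2 lowered (5.11% of all genes). Whether the effect on venetoclax differed from that on DMSO was called for 0 members in either genotype; in WT DESeq2 called 2 and the block 4 (2.46% of all genes).

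Bexobrutideg with venetoclax raised 14 members over venetoclax alone in WT, where 15.5% of all genes changed (8% higher), and 0 in A428D, where 0% changed and 0 members had an unadjusted p under 0.05. Among the WT genes OAS3 rose by 1.39 ± 0.30, PLSCR1 by 0.93 ± 0.16, OAS1 by 0.87 ± 0.13 and STAT2 by 0.80 ± 0.18. OAS1, OAS3, TRIM22, SAMD9, SAMD9L, ISG20, OAS2 and STAT2 are genes that venetoclax alone had lowered in WT. Both comparisons use the same WT venetoclax libraries, so low values there push a gene toward both lists. The WT group given bexobrutideg and venetoclax holds the shallowest library. In that library 20 of the 44 members lay below and 17 above the range of the other 4 clones. Without it 13 were raised and 1 lowered.

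In the untreated set, though not in DMSO (below), the A428D clones stood above the WT clones. Of 43 tested members 24 were higher in untreated A428D clones and 0 lower, against 5.9% of all 14564 genes called (3.5% higher). The members' median difference was 0.61, against 0.00 over all genes. The increases covered 3 of 4 IFIT genes, 2 of 4 ISG15 pathway genes, 4 of 8 restriction factors and 9 of 11 other induced genes, and 0 of 4 transcription factors. IFIT3 was at 4.08, 3.66, 4.92, 4.00 and 3.23 CPM in the WT clones and ran from 7.43 to 13.1 in the A428D clones (median 9.01), with no overlap (1.32 ± 0.16, adjusted p = 0.000209). MX1 was at 50.3, 50.6, 62.0, 54.8 and 46.3 CPM in WT and from 70.6 to 127 in A428D (median 78.2), again without overlap (0.73 ± 0.16, adjusted p = 0.0304).

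OAS1 was at 10.4, 12.6, 14.6, 13.2 and 11.2 CPM in the untreated WT clones and from 19.1 to 30.4 in A428D (median 19.7), without overlap (0.86 ± 0.14, adjusted p = 0.00370). IFIT1 (1.39 ± 0.21), IFI44L (1.42 ± 0.24), OAS3 (1.30 ± 0.24), XAF1 (1.04 ± 0.22), HELZ2 (1.02 ± 0.19) and ISG15 (0.76 ± 0.19, adjusted p = 0.0435) were also higher. IFI27 was not called; its A428D clones ran from 10.6 to 54.9 CPM against 8.25 to 12.7 in WT (1.68 ± 0.50, adjusted p = 0.0888). IRF7 (0.82 ± 0.25, adjusted p = 0.0881), STAT2 (0.25 ± 0.09), IRF9 (0.25 ± 0.09), IRF1 (0.07 ± 0.11), BST2 (0.17 ± 0.11) and PARP9 (0.08 ± 0.19) were not called either. Leaving out 1 WT clone lowered the count to 15, 13, 14 and 14 without clones 1, 2, 4 and 5. The single parental library was at 3.14 CPM for IFIT3, 57.5 for MX1 and 13.5 for OAS1, and has no replicate.

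In DMSO fewer members differed between the same clones. Of 38 tested members 2 were higher in A428D, IFIT3 (1.28 ± 0.30, adjusted p = 0.0205) and SP110, and 2 were lower, EIF2AK2 (-0.57 ± 0.10, adjusted p = 0.00442) and SAMD9 (-0.41 ± 0.11, adjusted p = 0.0327). Of all 13397 genes 7.13% were called (3.3% higher, 3.83% lower), and the members' median was -0.03. EIF2AK2, the RNA-activated kinase that halts translation, was at 37.1, 32.1, 34.3, 37.1 and 30.8 CPM in WT and from 20.3 to 28.2 in A428D (median 22.4), without overlap. MX1 was at 19.9 to 31.6 CPM in WT and 17.2 to 23.3 in A428D, which overlap. With library totals in place of TMM scaling 2 were higher and 6 lower, and leaving out single clones gave 1 to 4 calls: 1 without WT clone 2, 3 or 4 or A428D clone 5 or 6, and 2 without WT clone 1 or 5. With clone number as a block, a number that clones of different genotype share only by name, 1 was higher and 1 lower (1.72% of all genes).

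The untreated difference exceeded the DMSO difference for 8 of 42 tested members, against 1.81% of all genes (1.02% higher). These were OAS1 (0.88 ± 0.20, adjusted p = 0.0256), EIF2AK2 (0.60), MX1 (1.02 ± 0.21, adjusted p = 0.0171), SAMD9 (0.62), SAMD9L (0.72), ISG20 (0.82), XAF1 (1.38 ± 0.31, adjusted p = 0.0241) and HELZ2 (1.18). The count was 14 with the clone as a block (4.58% of all genes), 4, 3, 2 and 2 without WT clone 3, WT clone 1, A428D clone 4 or A428D clone 5, and 0 without WT clone 4 or 5. The untreated and 24 h libraries were deposited as separate sets, so the set, the culture and the DMSO exposure cannot be told apart. Levels also differed between the sets in genes of both directions: OAS1 in the WT clones was at 10.4 to 14.6 CPM untreated and higher in DMSO, and IFI27 was at 8.25 to 12.7 untreated and 1.43 to 3.06 in DMSO.

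**Figure D4:**
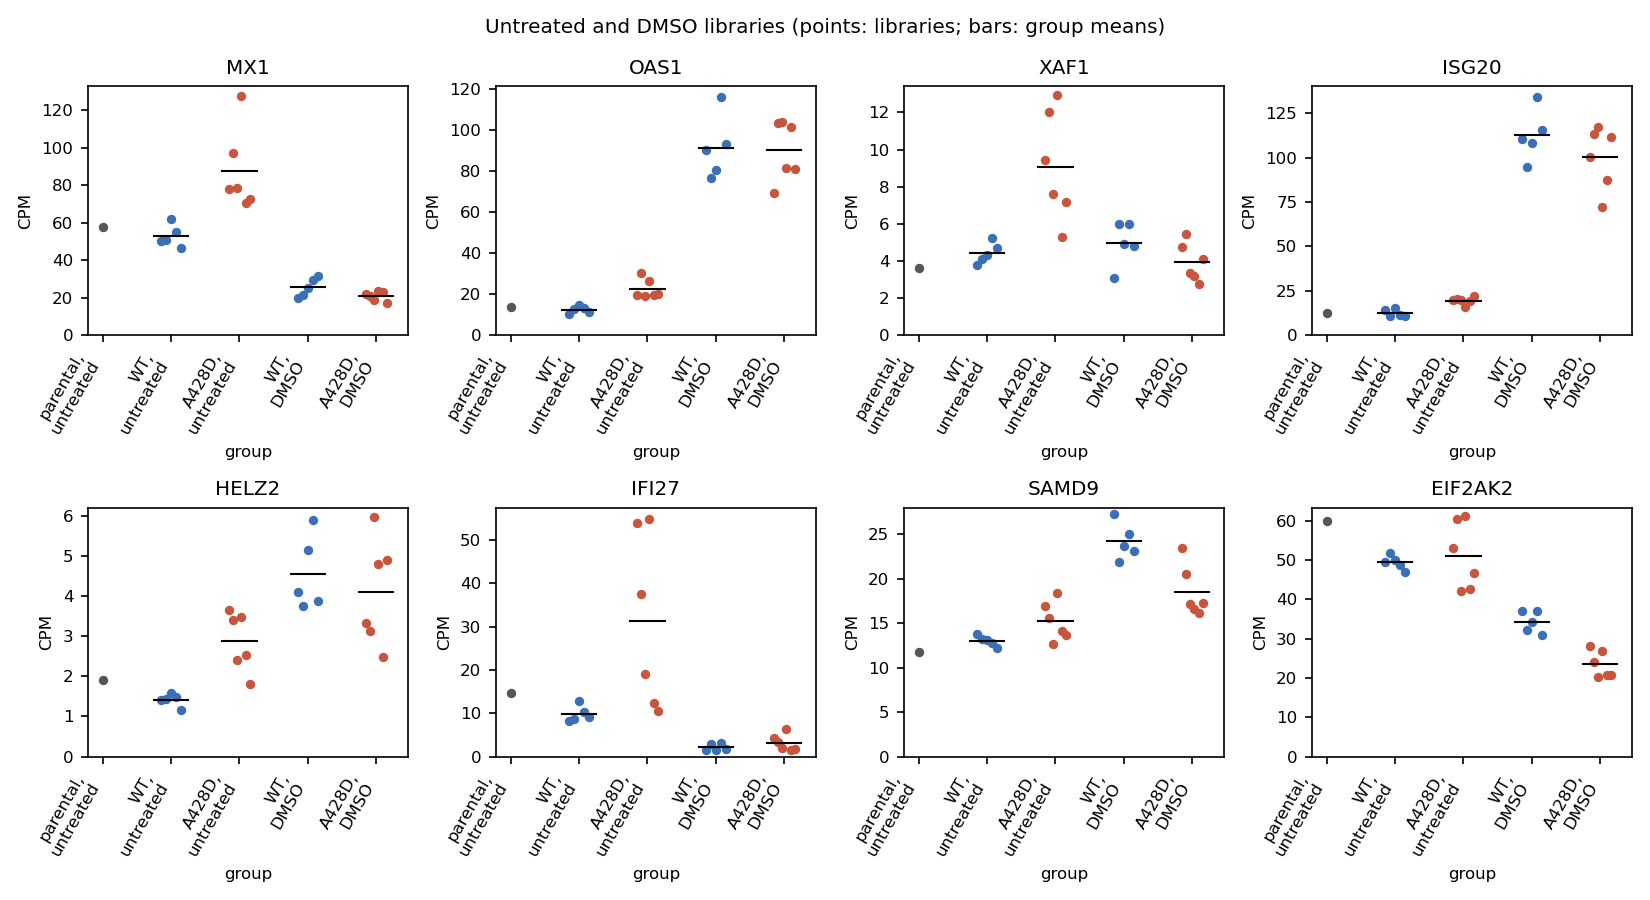
CPM of 8 genes (panels, linear axis from 0) in the parental, WT and A428D untreated libraries and the WT and A428D DMSO libraries, with bars for group means. MX1 and OAS1 separate the untreated genotypes without overlap, and EIF2AK2 is lower in A428D in DMSO.

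SP110, a nuclear body protein, differed by clone. Its median over the 9 libraries of a clone was 97.6, 80.3, 69.0 and 76.2 CPM in A428D clones 1, 3, 5 and 6, but 0.633 and 0.748 in A428D clones 2 and 4. The WT clones had medians of 0.47 to 2.53, and the parental library was at 10.3. The difference between genotypes was called in the untreated set (6.19 ± 1.48, adjusted p = 0.0433) and in DMSO (5.99 ± 1.44, adjusted p = 0.0403), yet it rests on 4 of the 6 clones. SP140, which overlaps SP110 on the opposite strand, followed the same clones. Its medians were 96.1, 52.8, 50.2 and 53.3 CPM in A428D clones 1, 3, 5 and 6 and 0.380 and 0.142 in clones 2 and 4. SP140L and SP100, which do not overlap SP110, followed these clones too. In the same order, SP140L was at 23.23, 16.38, 14.83 and 16.92 CPM against 0.156 and 0. SP100 was at 77.84, 50.69, 52.55 and 44.99 CPM against 19.25 and 7.984, with WT medians of 20.41 to 27.49. CAB39 did not follow them, at 88.83, 64.41, 64.55 and 66.42 CPM against 67.1 and 64.69. The cause of this split was not tested. SP110 was not called in any drug comparison. A428D clones 2 and 4 were thus low for SP110 and high for IFI27, whereas clone 1 was high for both.

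**Figure D5:**
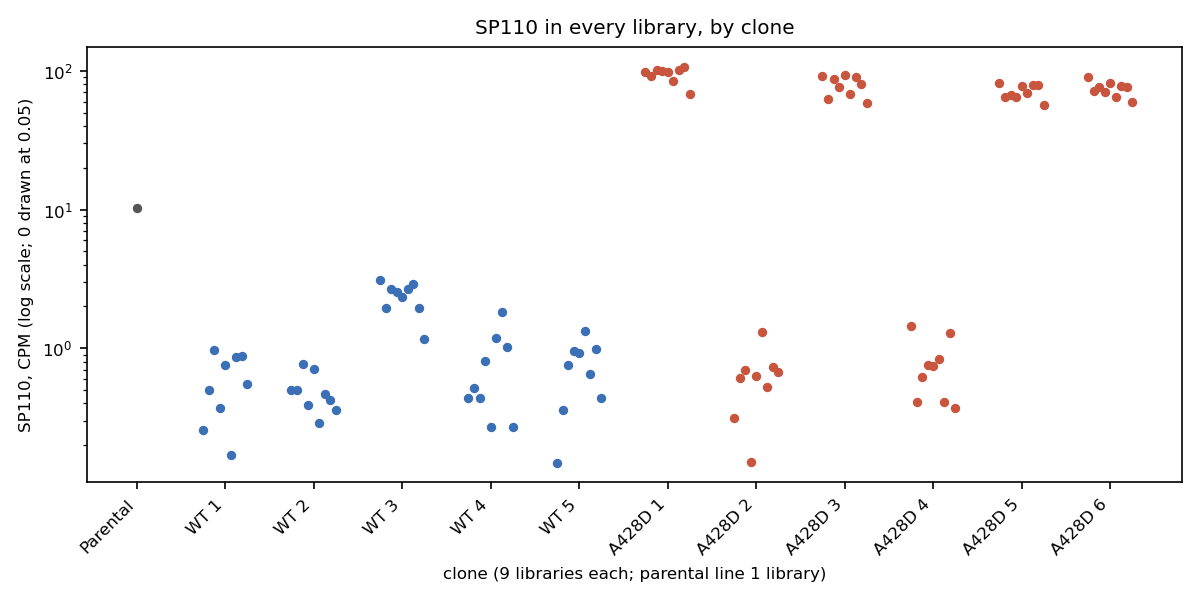
SP110 in CPM (log axis, libraries at 0 drawn at 0.05) for each library, by clone. A428D clones 1, 3, 5 and 6 lie at 56.9 CPM or above, and A428D clones 2 and 4 and all WT clones at 3.11 or below.

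Other genes of the interferon pathway, from a list of 60 of which 42 passed the filter in the 24 h set, moved in both directions. With pomalidomide 8 were higher and 10 lower in WT (median -0.04), and 10 higher and 7 lower in A428D. The receptor kinase JAK2 rose by 0.55 in WT and 0.50 in A428D, the sensor DHX58 by 0.78 and 0.59, and the nucleotide hydrolase SAMHD1 by 0.94 and 0.95. JAK1 fell by 0.48 and 0.61, and the interferon gamma receptor chains IFNGR1 by 0.64 and 0.51 and IFNGR2 by 0.42 and 0.35. IRF8, a B cell and myeloid regulator, fell most, by 2.13 ± 0.13 in WT and 1.83 ± 0.12 in A428D. IKZF1 mRNA, whose protein pomalidomide degrades, rose by 0.93 ± 0.07 and 0.90 ± 0.06. With zelebrudomide IRF4, a factor on which this lymphoma depends, fell by 1.19 ± 0.15 in WT and was at 0.07 in A428D. Bexobrutideg gave a like change in IRF4, of -1.02 ± 0.15 in WT (adjusted p = 2.45e-06) and 0.08 in A428D. The difference between the degraders was not called for IRF4 in WT (-0.18 ± 0.15, adjusted p = 0.903).

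Interferon transcripts themselves were near the limit of detection. Of 15 interferon genes 7 had 0 counts in every library, and the highest count was 14, for IFNG. IFNB1, the type I interferon that most cell types can make, had 211 counts in all and at most 11 in a library. It did not pass the expression filter. Fitted without that filter it was higher with pomalidomide and venetoclax than with venetoclax alone, by 4.26 ± 0.80 in WT (adjusted p = 1.27e-05) and 3.12 ± 0.66 in A428D (adjusted p = 0.000212). With pomalidomide alone it was at 2.43 ± 0.83 in WT (adjusted p = 0.110) and 1.13 ± 0.64 in A428D (adjusted p = 0.769). The WT clones had means of 0.026 ± 0.058 CPM with venetoclax and 0.900 ± 0.315 with the pair (SD, n = 5), a few counts per library. IFNG, the type II interferon, was called once in the unfiltered fits, lower in untreated A428D than in untreated WT clones (-1.34 ± 0.39, adjusted p = 0.0216), while 24 members were higher there. Of the members below the filter, ZBP1 was called higher with pomalidomide and venetoclax than with venetoclax alone in A428D (2.82 ± 0.77, adjusted p = 0.0147).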

How the data were processed

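Poly(A) RNA was sequenced from transcript 3' ends, per the labels' protocols. The authors deposited 1 table of estimated counts for genes; 8.76% of values were not whole and were rounded here (total changed by -0.00678%). STAR 2.7.11 and featureCounts of Subread 2.1.1, with GRCh38, are among the tools in the submitters' processing notes; which strand setting the counting used is not given in the sources used here. Positions are from GENCODE 29. The 92 spike-in rows were left out.

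The members and all lists were chosen with earlier results of these data known. Drug effects and differences between drug effects were fitted over all 88 libraries and 16 groups of the 24 h set. Genotype effects were fitted over the 11 libraries concerned. The untreated against DMSO difference in genotype effect also used untreated libraries, which lie outside the 24 h set. The main fits used edgeR 4.0.16 in R 4.3.3: TMM scaling, the default expression filter (minimum count 10, minimum total 15), robust quasi-likelihood test, Benjamini-Hochberg adjustment over all genes tested, called under 0.05. Standard errors are the change divided by the square root of F. CPM were TMM-scaled over all 100 libraries; paired changes used a prior count of 2. Described in each comparison were 12 genes (IFIT1, IFIT3, ISG15, MX1, OAS3, PARP9, XAF1, IRF7, IRF9, STAT2, IRF1 and BST2) and called members of largest change, up to 10; other genes were picked for the text after their values were seen. The 5 comparisons of differences involving venetoclax or untreated against DMSO were added after the data were seen. The script was tested on simulated counts. The same clones were given every condition: deviations from the group mean over the 500 most variable genes had a median correlation of 0.591 between libraries of the same clone and -0.16 between clones, with a lowest pair of -0.112, so the clone pairs libraries. Alternatives were DESeq2 1.42.0, other scalings, no filter, a clone block, fits of only the groups compared and single libraries or clones left out.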

Additional observations from a re-analysis of the deposited data

Results flagged for a closer look

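In 234 groups of a gene or of the members' mean, 21 held 1 library farther from the others than Dixon's test allows, and chance alone gives about 1 in 20. The shallowest library, WT clone 3 with bexobrutideg and venetoclax, gave 4 of these: ISG15 at 12.1 CPM (85.1 to 101 in the other clones), BST2 at 3.86 (58.6 to 72.3), IRF9 at 3.38 (18.1 to 22.2) and PARP9 at 55 (36.5 to 40.5). Without it the group mean of ISG15 was 92.9 ± 7.44 CPM (SD, n = 4) in place of 76.7 ± 36.7 (SD, n = 5).

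Other groups with venetoclax held several. With bexobrutideg and venetoclax these were OAS3 in WT clone 4 (3.8, others 4.63 to 4.94), IRF1 in WT clone 5 (12.2, others 7.29 to 8.51), OAS3 in A428D clone 3 (5.12, others 1.97 to 2.84) and XAF1 in A428D clone 4 (4.74, others 2.78 to 3.41). With zelebrudomide and venetoclax they were ISG15 in WT clone 1 (83.3, others 100 to 106) and BST2 in WT clone 5 (89.8, others 78.2 to 81.4). With pomalidomide and venetoclax IRF9 stood apart in A428D clone 3 (18.7, others 24 to 26.8). With venetoclax alone OAS3 did so in WT clone 3 (3.24, others 1.06 to 1.69), PARP9 in WT clone 1 (32.5, others 24.9 to 26.8) and the mean log2 CPM of the members in A428D clone 1 (3.51, others 3.08 to 3.23).

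Among single drugs, PARP9 was apart in WT clone 1 with pomalidomide (67.6, others 54.2 to 57.2), STAT2 and IRF1 in WT clones 3 and 2 with zelebrudomide (46.3, others 57.9 to 61.6, and 12, others 15.8 to 17.2) and STAT2 in A428D clone 1 with bexobrutideg (51.4, others 28.9 to 37.3). IFIT1 in DMSO was apart in WT clone 3 (1.55, others 0.624 to 0.771). In the untreated set PARP9 was apart in A428D clone 1 (38.4, others 18.4 to 24.1) and ISG15 in WT clone 3 (63.8, others 46.2 to 50.7).

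Effects that differed between conditions by edgeR's test of the difference were those of pomalidomide on venetoclax against pomalidomide on DMSO in WT for OAS2 (1.15) and MX1 (1.63). The genotype difference was larger untreated than in DMSO for OAS1 (0.88), EIF2AK2 (0.60), MX1 (1.02), SAMD9 (0.62), SAMD9L (0.72), ISG20 (0.82), XAF1 (1.38) and HELZ2 (1.18).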

How the results depend on the processing

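Counts of called members that moved by over 1.5 times are given here; the cause was not tested. With the clone as a replicate block they were 23 and 18 for zelebrudomide in WT and A428D, 12 for bexobrutideg in WT, 15 for zelebrudomide on venetoclax in A428D, 8 and 16 for zelebrudomide against bexobrutideg, and 2, 3 and 1 for the difference between genotypes with zelebrudomide, bexobrutideg and pomalidomide. The block gave 12 (WT) and 5 (A428D) for pomalidomide on venetoclax against on DMSO, 4 for zelebrudomide likewise in WT, and 14 for untreated against DMSO; with clone number as the block the DMSO genotype count was 2. In the other 13 comparisons in which the clone block was fitted, and in the untreated genotype comparison with the number block, the count stayed within 1.5 times. Fits of only the groups compared gave 25 for zelebrudomide and 11 for bexobrutideg in WT, 11 and 0 for zelebrudomide against bexobrutideg, 6 for zelebrudomide against pomalidomide in A428D, and 9 and 3 for the WT differences of pomalidomide and zelebrudomide on venetoclax. Without the expression filter the counts were 13 for zelebrudomide in A428D, 4 for bexobrutideg in WT, 8 for zelebrudomide on venetoclax in A428D, and 6 (WT), 3 (A428D) and 1 (zelebrudomide, WT) for those differences. DESeq2 gave 2 for bexobrutideg in WT and 4, 1 and 2 for the same differences; library totals gave 8 for genotype in DMSO and 2 for zelebrudomide against bexobrutideg in WT. Without the shallowest library there were 3 for bexobrutideg and 4 and 2 for the WT differences of pomalidomide and zelebrudomide.

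Leaving out 1 clone at a time gave 13 to 23 for genotype untreated, 1 to 4 in DMSO, 8 to 9 and 7 to 8 for zelebrudomide in WT and A428D, 0 to 1 for bexobrutideg in WT, 19 to 25 and 24 to 31 for pomalidomide, 12 to 14 and 6 to 9 for venetoclax, 16 to 18 and 2 to 4 for zelebrudomide on venetoclax, 11 to 13 for bexobrutideg on venetoclax in WT, 30 to 34 and 31 to 36 for pomalidomide on venetoclax, 3 to 4 and 4 to 7 for zelebrudomide against bexobrutideg, 11 to 16 and 15 to 18 for zelebrudomide against pomalidomide, 0 to 2 for the WT difference of pomalidomide on venetoclax, and 0 to 10 for untreated against DMSO. The venetoclax count in A428D was 6 without clone 3, and that of zelebrudomide on venetoclax in A428D was 2 without clone 4 and 3 without clone 1, 5 or 6. Over all single-gene calls repeated without 1 clone, 1123 kept the call, 292 missed the threshold and 0 changed sign. Depth limits members of few counts, such as IFI44, ZBP1 and the interferon genes.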
